A study of Mus musculus with 4 samples.

Results

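The 10 imprinted genes Igf2, H19, Igf2r, Peg3, Zim1, Mest, Plagl1, Dlk1, Ndn and Grb10 were followed in tumour-derived mouse mammary cells with and without Pak1, a p21-activated kinase. Every probe that is not a control spot and carries 1 of these 10 names in the scanner files was taken, which gave 19 of the 39429 probes on the array. Total RNA of 4 samples was hybridized to a single-colour Agilent mouse array with 60-base probes. Tumours of MMTV-Neu mice were the source of all samples, so both groups carry the Neu (Her2, Erbb2) oncogene under a promoter active in mammary epithelium. The 2 groups were Pak1-/- and Pak1+/+, with 2 samples each (n = 2 throughout). Both were grown in medium low in calcium with horse serum, starved of serum for 3 h and then given EGF for 15 min. The design text assigns the samples of a group to different tumours, whereas the study calls the cells lines, so p-values measure the spread between these samples. No age of the animals was given in the sources used here.

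At an imprinted locus only the copy from 1 parent is active, because DNA methylation laid down in the egg or sperm marks a control region and is kept through every later cell division. Many imprinted genes act on growth: as a general pattern, genes active from the father's copy promote fetal growth and genes active from the mother's copy restrain it. The array measures the RNA of both copies together, so nothing here says which copy was active.

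The sequences of the Plagl1 probes are shown first, because the probes of this gene gave differences of unlike size. Below are 30 bases of each, 5′ to 3′ as in the scanner files, in the order of their positions along mm9 chromosome 10. The first and second are the opening 30 bases of the probe. Those of the other probes are the 30 bases from the start of the stretch that these probes share, and capitals mark the bases at which they differ.
A_55_P1961965: actgccagtgccacagccactaccacagcc
A_55_P2153251: attttcacagctggctccaacactgctatc
A_55_P1961968: atctcctaacctttgatgactctgtaCttT
A_52_P532456: atctcctaacctttgatgactctgtaTttC
The last 2 probes held the same letters at 46 of 48 aligned bases, with an unbroken shared run of 26 bases, although the files place them at separate positions. They are therefore not independent measurements of Plagl1, and hybridization of the same RNA to both was not tested.

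The regions before the starts of the 3 members that passed the test below are shown next. They are the 250 bases before the RefSeq start (GRCm38.p6), read in the direction of the gene, with each CG, the dinucleotide that is methylated in mammals, in capitals. The positions are chr10:13090582-13090831 (plus strand) for Plagl1, chr7:6730420-6730669 (minus strand) for Peg3 and chr17:12769707-12769956 (minus strand) for Igf2r.
Plagl1: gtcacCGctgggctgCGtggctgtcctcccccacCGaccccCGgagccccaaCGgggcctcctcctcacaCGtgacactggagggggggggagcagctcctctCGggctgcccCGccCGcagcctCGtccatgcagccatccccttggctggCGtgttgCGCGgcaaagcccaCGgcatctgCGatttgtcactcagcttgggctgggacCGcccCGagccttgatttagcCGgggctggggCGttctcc
Peg3: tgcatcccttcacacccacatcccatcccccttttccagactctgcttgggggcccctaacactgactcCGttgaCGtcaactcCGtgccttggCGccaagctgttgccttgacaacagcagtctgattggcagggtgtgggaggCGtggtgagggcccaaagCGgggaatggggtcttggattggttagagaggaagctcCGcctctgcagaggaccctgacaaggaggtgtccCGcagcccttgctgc
Igf2r: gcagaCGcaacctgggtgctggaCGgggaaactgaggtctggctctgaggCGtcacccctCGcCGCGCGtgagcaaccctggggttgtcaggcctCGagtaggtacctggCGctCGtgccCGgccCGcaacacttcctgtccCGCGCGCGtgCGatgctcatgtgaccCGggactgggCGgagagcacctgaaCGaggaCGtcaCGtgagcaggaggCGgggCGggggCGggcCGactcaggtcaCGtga
These stretches held 19 CG dinucleotides for Plagl1, 8 for Peg3 and 27 for Igf2r, against a median of 6 over the 32851 promoters of the table. The share of promoters with no more CG than these was 82.1%, 59.7% and 92.4%, in the same order. The letters TGCCGC on either strand, the core that the imprint-keeping factor Zfp57 is known to bind and which itself contains a CG, occurred in 8.68% of all such 250-base stretches. They occurred in 4 of the 15 stretches listed for 9 members, before starts of Plagl1, Zim1 and Mest, where the 2 Mest stretches with matches overlap almost wholly. The Plagl1 stretch held 1 match and those of Peg3 and Igf2r none. Methylation was not measured in these samples. The control regions of these imprints were not located, so counts and matches in these stretches say nothing about them.

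Intensities are given below as log2 values after background correction and quantile normalization, in the order Pak1-/- replicate 1, Pak1-/- replicate 2, Pak1+/+ replicate 1, Pak1+/+ replicate 2. The median intensity of the arrays ranged from 322 to 331 and 62.2% to 70.4% of probes were well above background, a flag the scanner software sets for each spot. Arrays correlated across probes at 0.997 within each group and at 0.954 to 0.959 between groups (probes are not independent replicates). The groups thus differed widely: of 22014 genes tested by their brightest probe, 51.0% had an adjusted p under 0.05 (limma's moderated test, Benjamini-Hochberg over all 27229 probes tested), 22.8% higher and 28.2% lower in Pak1-/-. The Pak1 probe read 12.21, 12.25, 12.04 and 12.04. It was thus not lower in the arrays labelled Pak1-/- (limma adjusted p = 0.0700). Whether this probe lies in the deleted part of the gene is not given in the sources used here, so it does not settle the labels, and every direction below is between arrays so labelled. All arrays lay on 1 slide, with the Pak1-/- samples in adjacent positions, so position and genotype cannot be told apart.

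Of the 10 imprinted genes, 6 were well above background on at least 2 arrays and were tested. Igf2r was higher in Pak1-/- and Peg3 and Plagl1 were lower, while Igf2, H19 and Ndn did not pass the threshold. These 3 calls among 6 genes tested stand against the 51.0% called among all genes. By the brightest probe of each gene, chosen by the mean over the 4 arrays, none of the members reached a 2-fold difference. With a call, 12.6% of all genes reached that size. On the Pak1+/+ arrays alone the brightest Plagl1 probe was A_52_P532456, with a difference of -2.01 (limma adjusted p = 0.000742). The Pak1-/- and Pak1+/+ values were fully apart for 5 of these 6 genes, Ndn being the exception, as they were for 77.6% of all genes tested. Of the 19 probes 10 were tested and 6 called, 2 of them the Plagl1 probes that share sequence, against 51.9% called among all probes. Zim1, Mest, Dlk1 and Grb10 were not tested because no array showed their brightest probes well above background. In RNA from a whole sample, fewer cells of a type and less RNA per cell cannot be told apart.

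**Figure D1:**
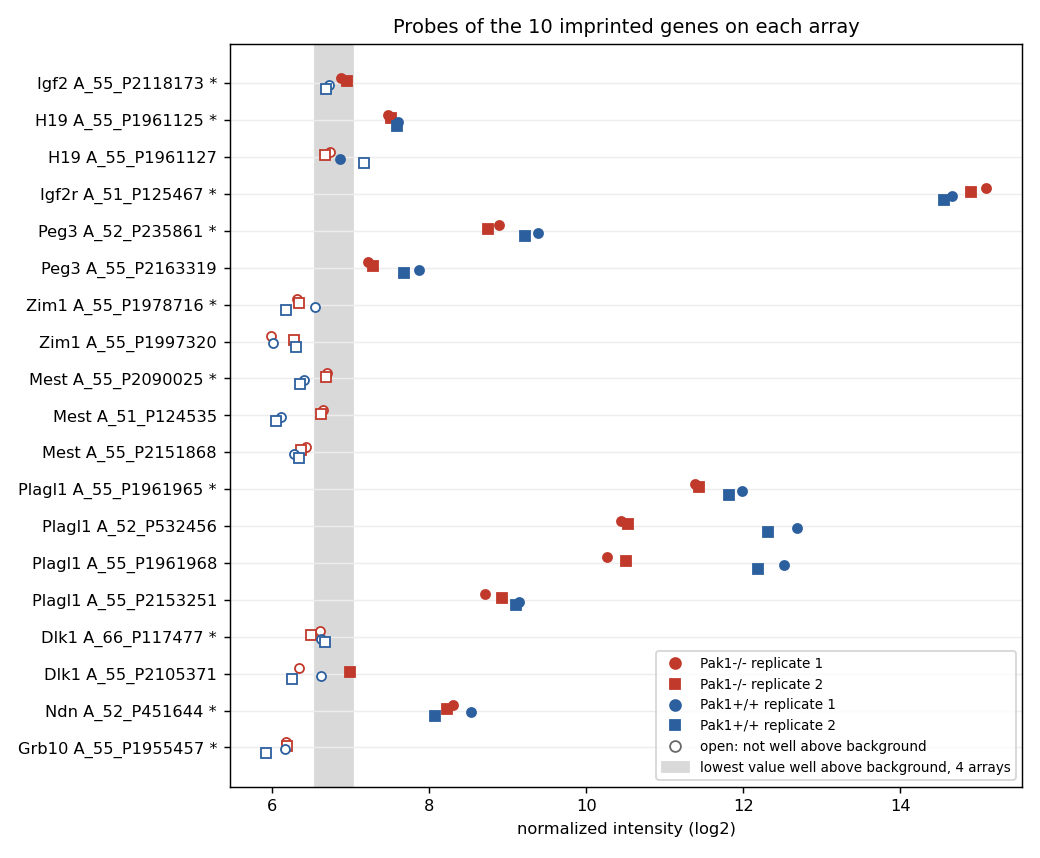
Normalized log2 intensity (x axis) of the 19 probes of the 10 imprinted genes (y axis) on each array. Red marks Pak1-/- and blue Pak1+/+, circles replicate 1 and squares replicate 2, open marks are spots not well above background, the grey band spans the lowest values well above background on the 4 arrays (6.55 to 7.03), and an asterisk marks the brightest probe of a gene. Igf2r, Peg3 and Plagl1 lie clear of the band with the groups apart, and levels are not comparable between probes.

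Plagl1 (also called Zac1) encodes a zinc finger transcription factor, usually active from the father's copy, that restrains cell division. Its brightest probe by the mean over the 4 arrays, A_55_P1961965 (mm9 chromosome 10, 12848421 to 12848480), read 11.38, 11.43, 11.98 and 11.81. Both Pak1-/- arrays were below both Pak1+/+ arrays, by 0.49 on the log2 scale (SE 0.088, 95% interval -0.72 to -0.26, 1.40-fold, limma adjusted p = 0.00998). The next probe, 430 bp further along, read 8.71, 8.92, 9.14 and 9.11, and gave a difference of -0.31 (SE 0.098) with a limma adjusted p of 0.0536, short of the threshold. This difference was -0.20 without Pak1-/- replicate 1, and it passed without Pak1-/- replicate 2 (-0.41, limma adjusted p = 0.0294) and with the filter on all 4 arrays (limma adjusted p = 0.0417). The groups did not overlap at this probe either.

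The shared-sequence probes further along gave a larger difference. They were brighter than the first probe on both Pak1+/+ arrays and dimmer on both Pak1-/- arrays. Which Plagl1 probe is the brightest thus depends on the group. A_55_P1961968, 2411 bp from the first probe (12850832 to 12850891), read 10.27, 10.50, 12.52 and 12.19, a difference of -1.97 (SE 0.15, 95% interval -2.36 to -1.58, 3.92-fold lower, limma adjusted p = 0.000900). A_52_P532456, 2859 bp from the first (12851280 to 12851339), read 10.45, 10.53, 12.69 and 12.32, a difference of -2.01 (SE 0.14, 95% interval -2.38 to -1.64, 4.03-fold lower, limma adjusted p = 0.000742). The intervals of these 2 probes did not reach those of the 2 upstream probes. Over all probes of the gene, with the shared-sequence probes as 2 of the 4 values, the mean difference was -1.19, so the size given for Plagl1 depends on the probe. The differences of the 2 downstream probes passed the threshold under all 14 alternatives, between -2.19 and -1.83 for A_52_P532456 and between -2.14 and -1.81 for A_55_P1961968. The brightest probe lost its call without Pak1-/- replicate 1, where the difference was -0.46 (limma adjusted p = 0.0533).

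**Figure D2:**
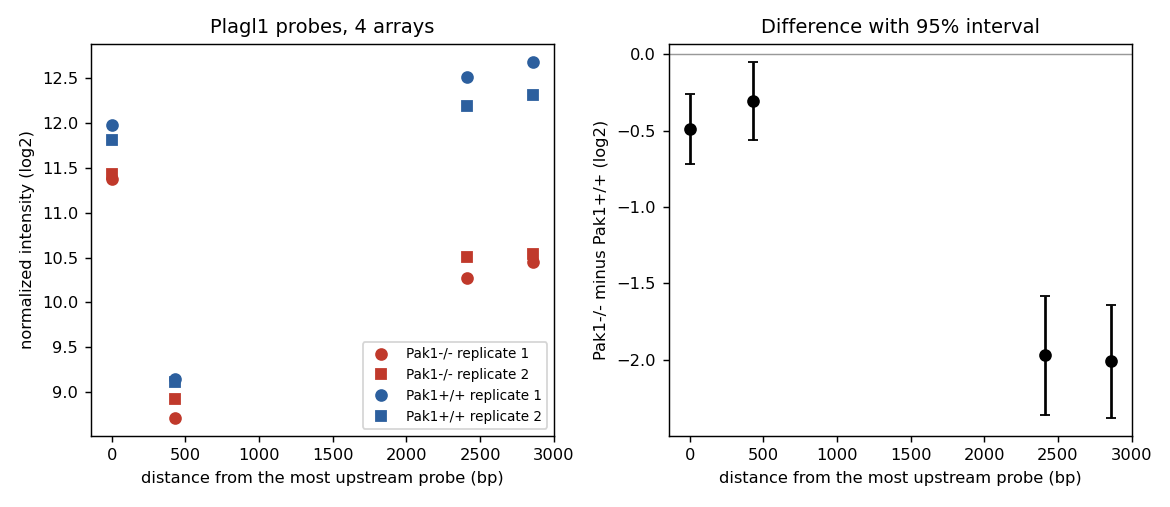
Left, normalized log2 intensity of the 4 Plagl1 probes on each array against the distance in bp from the most upstream probe (red Pak1-/-, blue Pak1+/+, circles replicate 1, squares replicate 2). Right, the difference Pak1-/- minus Pak1+/+ on the log2 scale with its 95% interval, near -0.49 and -0.31 at the first 2 probes and near -1.97 and -2.01 at the last 2.

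Peg3 encodes another zinc finger protein that is usually active from the father's copy and is known for roles in growth and maternal behaviour. Its brightest probe, A_52_P235861 (mm9 chromosome 7, 6658774 to 6658833), read 8.89, 8.75, 9.38 and 9.22. The Pak1-/- arrays lay below both Pak1+/+ arrays, by 0.48 (SE 0.095, 1.40-fold, limma adjusted p = 0.0132). The other probe, A_55_P2163319, lies in the same gene without sharing that position and read 7.22, 7.28, 7.88 and 7.68. Its difference of -0.53 (SE 0.095, 1.44-fold lower, limma adjusted p = 0.0103) had the same direction and size. The call of the brightest probe was lost without Pak1-/- replicate 2 (-0.41, adjusted p = 0.0576) and without Pak1+/+ replicate 1 (-0.40, adjusted p = 0.0618), and that of the other probe without Pak1-/- replicate 1 (-0.50, adjusted p = 0.0572), all by limma.

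Zim1, the neighbour of Peg3 that is usually active from the mother's copy, read 6.31, 6.34, 6.55 and 6.18 at its brighter probe and 5.98, 6.28, 6.01 and 6.30 at the other. None of these values was well above background. Peg3os, an antisense transcript at Peg3 that was looked up after its values were seen, read 6.96, 7.15, 7.13 and 6.88, and its groups overlapped (limma adjusted p = 0.775). Zfp264, a zinc finger gene of the same domain, read 8.14, 8.07, 8.39 and 8.78 and was lower by 0.48 (limma adjusted p = 0.0473). That call was lost under 10 of 15 alternatives, and the difference ranged from -0.68 without Pak1+/+ replicate 1 to -0.29 without Pak1+/+ replicate 2. Of 28 tested genes within 1 Mb of the Peg3 probe, 6 were higher and 4 lower, against 22.8% and 28.2% of all genes, with a median difference of -0.01.

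Igf2 encodes insulin-like growth factor 2, a fetal growth factor usually made from the father's copy, and H19 is the noncoding RNA beside it that is usually made from the mother's copy. The brightest and only Igf2 probe, A_55_P2118173 (mm9 chromosome 7, 149839661 to 149839720), read 6.87, 6.95, 6.72 and 6.68. It was well above background on both Pak1-/- arrays and on neither Pak1+/+ array, so the ratio is a bound, at least 1.02-fold toward Pak1-/-, and it did not pass (fitted difference 0.21, SE 0.072, limma adjusted p = 0.0687). H19 read 7.48, 7.51, 7.60 and 7.58 at A_55_P1961125 (149762417 to 149762476), well above background on every array. The Pak1-/- values were the lower ones, but the difference, -0.10 with an SE of 0.067 and a 95% interval of -0.28 to 0.08, fell short of the threshold (limma adjusted p = 0.277). The other H19 probe read 6.73, 6.67, 6.86 and 7.17 and was well above background on Pak1+/+ replicate 1 alone. Igf2os, an antisense transcript at Igf2 that was looked up after its values were seen, read 7.03, 6.88, 7.23 and 6.91, with overlapping groups (limma adjusted p = 0.520).

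Igf2r encodes the cation-independent mannose 6-phosphate receptor, which sorts lysosomal enzymes and carries IGF2 to the lysosome for breakdown, and is usually active from the mother's copy in mice. Its probe, A_51_P125467, read 15.10, 14.90, 14.65 and 14.56. Both Pak1-/- arrays were above both Pak1+/+ arrays, by 0.39 (SE 0.098, 95% interval 0.13 to 0.65, 1.31-fold, limma adjusted p = 0.0274). The probe is printed 10 times on each array and its spots varied with an SD of 0.060 to 0.074. The files place it at mm9 chromosome 17, 12875253 to 12875263, an interval shorter than the probe. The call was lost without Pak1-/- replicate 1 (0.29, adjusted p = 0.0812), without Pak1+/+ replicate 1 (0.44, adjusted p = 0.0653), without Pak1+/+ replicate 2 (0.34, adjusted p = 0.115) and with the scanner's processed signal scaled to the 75th percentile (0.31, adjusted p = 0.0798), all by limma.

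Airn, the noncoding RNA from the father's copy that runs antisense through Igf2r, had 4 probes, all well above background on every array. The brightest read 14.59, 14.06, 14.82 and 14.26 with overlapping groups and a difference of -0.21 (limma adjusted p = 0.527), which turned positive when Pak1-/- replicate 2 (0.05) or Pak1+/+ replicate 1 (0.06) was left out. Another probe, with -0.49, did not pass (limma adjusted p = 0.113), while the remaining probes, with -0.39 and -0.60, did (limma adjusted p = 0.0348 and 0.0493). Of 26 tested genes within 1 Mb of the Igf2r probe, 3 were higher and 7 lower, against 22.8% and 28.2% of all genes.

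Mest, a hydrolase-family gene usually active from the father's copy and a mark of embryonic mesoderm, was dim at all 3 of its probes. The brightest, A_55_P2090025, read 6.70, 6.68, 6.40 and 6.36, and A_51_P124535 read 6.65, 6.62, 6.12 and 6.05. The third probe read 6.43, 6.36, 6.28 and 6.34. A_51_P124535 is printed 10 times, and 4 and 2 of its spots were well above background on the Pak1-/- arrays against 0 and 0 on the Pak1+/+ arrays. Without the filter on dim probes the limma adjusted p was 0.0338 for the brightest probe and 0.00799 for A_51_P124535, with the Pak1-/- arrays higher, but both groups were below the background flag and the values are not read as a measured difference. Copg2, which overlaps Mest, did not pass at its brightest probe (0.20, limma adjusted p = 0.0762) and was higher at the other (0.29, limma adjusted p = 0.0328). The difference at the brightest probe ranged from 0.16 to 0.28 over the alternatives and passed under some of them.

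Dlk1, a transmembrane protein of the Notch ligand type that holds back fat cell formation, read 6.61, 6.49, 6.62 and 6.68 at its brightest probe, below the background flag on all arrays. The other Dlk1 probe read 6.34, 7.00, 6.62 and 6.25 and was well above background on Pak1-/- replicate 2 alone. Meg3, the noncoding RNA of the opposite parental copy in that domain, read 6.93, 7.49, 6.18 and 6.72. It was dim on both Pak1+/+ arrays, which gives a ratio of at least 1.27-fold toward Pak1-/-, and it did not pass (limma adjusted p = 0.0672, fitted difference 0.76). Without single samples the fitted difference ranged from 0.48 to 1.04, and with the scaled processed signal it was 2.56 (limma adjusted p = 0.0188). Meg3 entered the test through the Pak1-/- arrays alone, so these values are not read as a measured difference. The other Meg3 probes were dim on all arrays, with differences of -0.02 and -0.19. Mirg, a microRNA host transcript of the domain, read 6.97, 6.90, 7.24 and 7.17 and was lower by 0.27 (limma adjusted p = 0.0336), while its other probe had -0.34 (limma adjusted p = 0.688).

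Ndn encodes necdin, a MAGE-family protein that restrains growth in neurons and is usually active from the father's copy. It read 8.30, 8.23, 8.54 and 8.07, well above background on all arrays, with the highest and the lowest value both in Pak1+/+. The difference of -0.04 (SE 0.17, 95% interval -0.48 to 0.41) did not pass (limma adjusted p = 0.864), and the interval leaves room for a difference of either sign. Grb10, an adaptor protein that damps signalling from the insulin and IGF1 receptors, read 6.18, 6.19, 6.17 and 5.92 and was dim on all arrays.

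The domain of Ndn held genes with larger differences than Ndn itself. Mkrn3, a RING finger gene usually active from the father's copy, read 10.10, 10.27, 12.27 and 12.61 and was lower by 2.25 (SE 0.14, limma adjusted p = 0.000565). Its other probe was not well above background on either Pak1-/- array and entered the test through the Pak1+/+ arrays alone. For that probe only a bound is given, at least 1.52-fold lower. Snrpn, a splicing protein gene of the same parental copy, read 12.54, 12.72, 11.62 and 11.45 and was higher by 1.10 (SE 0.11, limma adjusted p = 0.00176). A further Snrpn probe was higher by 1.05 (limma adjusted p = 0.00105), and the last, with 6.65, 6.68, 7.08 and 7.07, was well above background on 1 array alone. Magel2 (0.35, limma adjusted p = 0.406), Peg12 (-0.03, limma adjusted p = 0.804) and Ube3a (-0.29, limma adjusted p = 0.0658) did not pass. Magel2 passed without Pak1-/- replicate 1 (0.81, limma adjusted p = 0.0121) and was -0.12 without Pak1-/- replicate 2. Genes of this domain that are usually active from the same copy were thus found on opposite sides, each by its own test.

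Beside H19 and Igf2 on chromosome 7, Phlda2, a growth-restraining gene of the placenta, read 7.96, 8.09, 9.27 and 9.06 and was lower by 1.14 (SE 0.10, limma adjusted p = 0.00147). Cd81, a tetraspanin, was higher by 0.84 (limma adjusted p = 0.00124) and Ascl2, a transcription factor, by 0.37 (limma adjusted p = 0.0193). Ins2 (-0.23, limma adjusted p = 0.0443) and Slc22a18 (-0.29, limma adjusted p = 0.0279) were lower, and Kcnq1ot1 did not pass (-0.07, limma adjusted p = 0.858). The call was lost when any of the 4 samples was left out for Ins2 (limma adjusted p up to 0.203) and for Mirg (up to 0.163). It was lost without every sample but Pak1-/- replicate 2 for Slc22a18 (up to 0.123), and without every sample but Pak1+/+ replicate 1 for Ascl2 (up to 0.0999) and Zfp264 (up to 0.174). With either 75th percentile scaling or cyclic loess in place of quantile normalization Ins2 and Zfp264 also fell short (limma adjusted p from 0.102 to 0.152 and from 0.0634 to 0.106), as did Slc22a18 with cyclic loess (limma adjusted p = 0.0640).

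A wider list of 43 other imprinted genes was read in the same way. Of these, 42 had a probe and 26 were tested, with 8 higher, 7 lower and 11 not past the threshold. The share called, 15 of 26, stands against the 51.0% of all genes. Leaving out a sample lowered the count, to 8 when it was Pak1+/+ replicate 2 (6 higher, 2 lower) and to 9 for each of the others (5 to 6 higher, 3 to 4 lower). With cyclic loess 9 were higher and 4 lower, so the split between directions depends on the setting. The median difference was -0.0010, against -0.05 over all genes tested, and it ranged from -0.09 without Pak1+/+ replicate 2 to 0.12 without Pak1+/+ replicate 1. Among the 14 tested genes usually active from the father's copy 5 were higher and 3 lower, and among the 12 of the mother's copy 3 were higher and 4 lower. Of the listed genes 4 passed with at least a 2-fold difference: Mkrn3, Snrpn, Phlda2 and Impact, an inhibitor of the Gcn2 kinase pathway, which was higher by 1.23 (limma adjusted p = 0.00162). Another 10 of the listed genes were dim on every array. H13, named after its values were seen, had probes that disagreed, with differences of -0.39, -0.59, 0.52 and 1.88.

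**Figure D3:**
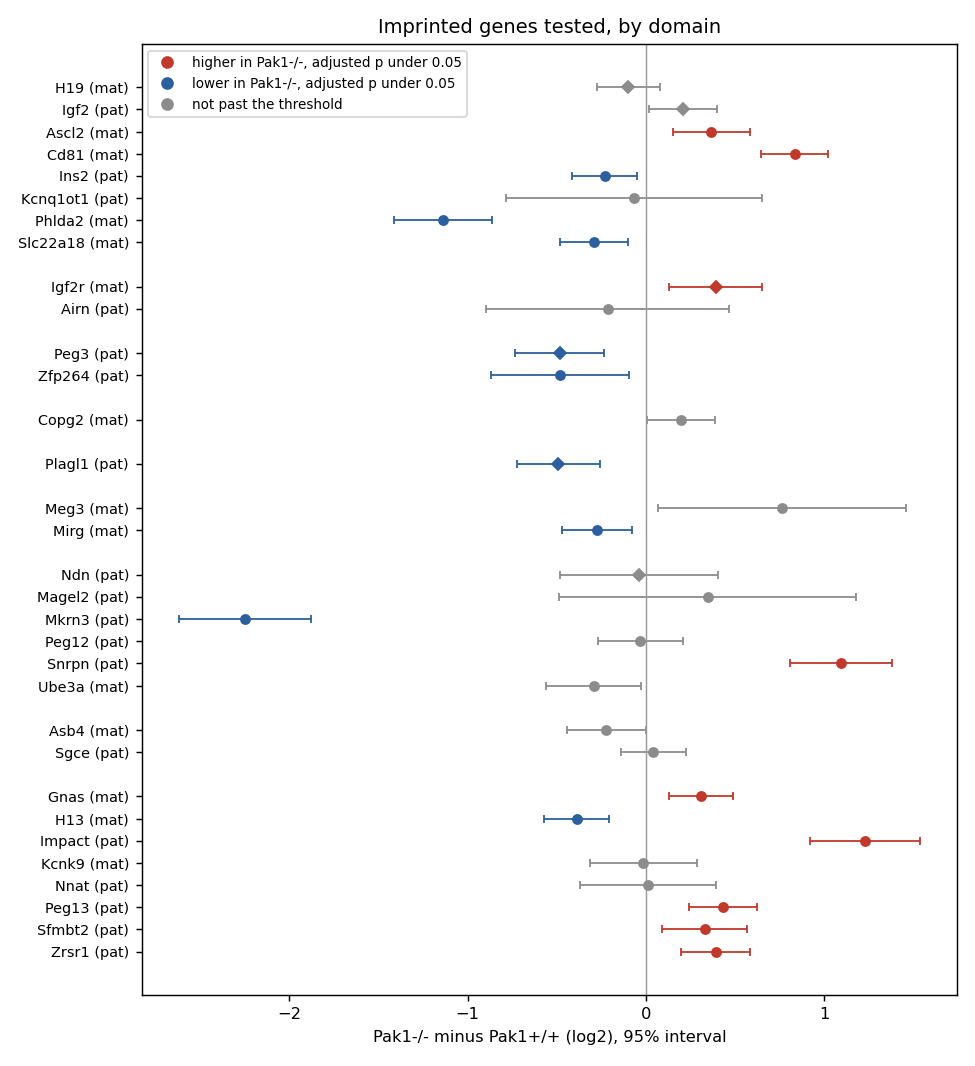
Difference Pak1-/- minus Pak1+/+ on the log2 scale with its 95% interval for the 6 members tested (diamonds) and 26 other imprinted genes (circles), by brightest probe and grouped by domain. Red and blue mark genes higher and lower with an adjusted p under 0.05, grey those not past it, and (pat) and (mat) the copy usually active, and both colours appear within the H19/Igf2 and Kcnq1 domains and within the Ndn domain.

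Genes close to the members on the chromosome were counted without a test. Within 1 Mb of the Plagl1 probe 10 genes were tested, with 2 higher and 7 lower and a median difference of -0.58, against 22.8% higher and 28.2% lower among all genes. Around the dim Grb10 probe 6 of 8 genes were lower (median -0.70), and around Mest 12 of 25 were lower and 1 was higher (median -0.24). Around Igf2, 9 of 45 genes were higher and 13 lower (median -0.07), and around Dlk1 the counts were 4 and 6 of 14 (median -0.0004).

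Proteins linked to the setting or keeping of imprints, called upkeep factors here, were taken as a list of 13. Of these 12 were tested, with 0 higher and 3 lower at an adjusted p under 0.05. Among all genes 51.0% were called, 22.8% higher and 28.2% lower. The median difference was -0.12, against -0.05 over all genes. Uhrf1, which binds DNA methylated on 1 strand and brings in Dnmt1, read 14.82, 14.73, 15.86 and 15.91 and was lower by 1.11 (SE 0.075, limma adjusted p = 0.000696). Its other probe was lower by 1.06 (limma adjusted p = 0.000782). Dnmt1, the methyltransferase that copies DNA methylation after replication, read 12.67, 12.75, 13.51 and 13.39 and was lower by 0.74 (SE 0.082, limma adjusted p = 0.00241). Zfp57, named after its values were seen, was lower by 0.37 (limma adjusted p = 0.0194), a call lost without Pak1-/- replicate 1 (-0.36, adjusted p = 0.0760), Pak1-/- replicate 2 (-0.38, adjusted p = 0.0660) or Pak1+/+ replicate 2 (-0.30, adjusted p = 0.0985). Ctcf, which insulates Igf2 from enhancers at the maternal copy, read 13.08, 13.09, 13.20 and 13.21, a difference of -0.12 (95% interval -0.29 to 0.05) that did not pass (limma adjusted p = 0.195).

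The second list held 11 partners of the members, such as receptors, RNA-binding proteins of Igf2 and relatives of Plagl1. Of these 10 were tested, 0 higher and 5 lower, against 51.0% called and 28.2% lower among all genes. The median difference was -0.30, against -0.05 over all genes, and was -0.17 with each gene's tested probes averaged. With any 1 sample left out the count was 3. Igf2bp1, which binds Igf2 and H19 RNA, read 6.86, 6.71, 10.42 and 10.44. It was well above background on 1 of the Pak1-/- arrays and on both Pak1+/+ arrays, and was lower by 3.64 (SE 0.082, limma adjusted p = 6.72e-05). With Pak1-/- values this near background the size depends on the processing. It was -4.46 with an offset of 0 and -5.17 with the scaled processed signal, which changes the background correction and the normalization at once. Igf2bp2, Plag1 and Siah1a, named after their values were seen, were lower by 0.99, 0.77 and 0.27 (limma adjusted p = 0.00243, 0.00737 and 0.0354), and Igf2bp3 was dim on all arrays. Siah1a fell short when any of the 4 samples was left out (limma adjusted p from 0.0526 to 0.162), whereas Igf2bp2 and Plag1 passed each time, with Plag1 near background on the Pak1-/- arrays and larger with the scaled processed signal (-1.69). The IGF receptor Igf1r read 12.00, 11.65, 11.96 and 12.06, with overlapping groups (-0.19, limma adjusted p = 0.300). That value was -0.36 without Pak1-/- replicate 1 (limma adjusted p = 0.0544) and -0.02 without Pak1-/- replicate 2. Insr, the insulin receptor, was lower by 0.33 at its brightest probe (limma adjusted p = 0.0419), a call lost when any of the 4 samples was left out (limma adjusted p from 0.0544 to 0.178) and with either 75th percentile scaling or cyclic loess (0.0540 to 0.0995), while its other probes had 0.24 and 0.08 and did not pass.

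**Figure D4:**
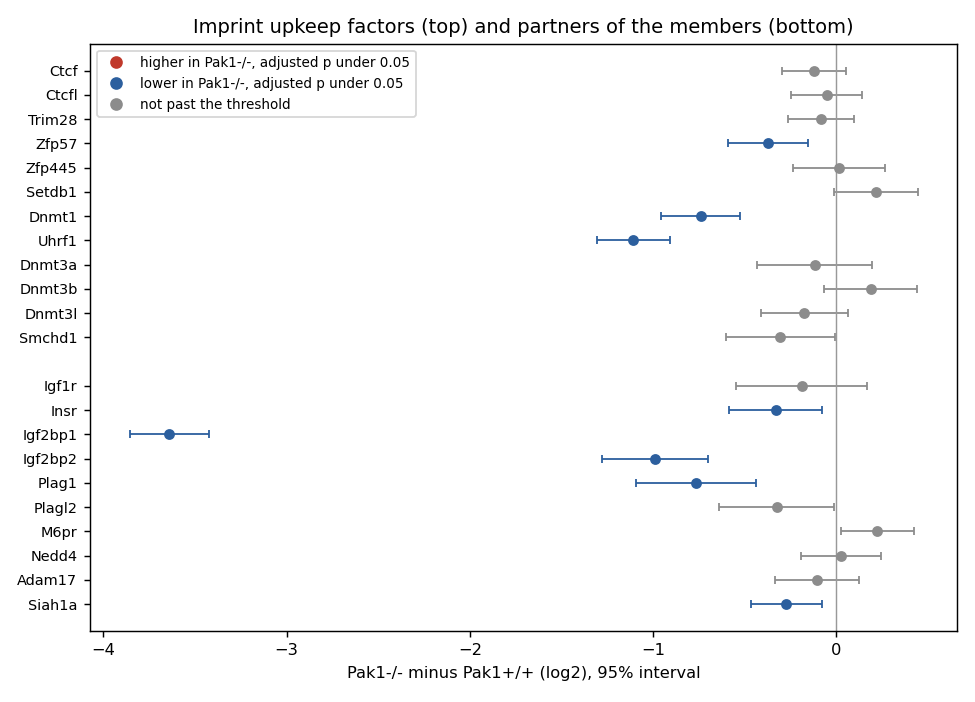
Difference Pak1-/- minus Pak1+/+ on the log2 scale with its 95% interval for 12 imprint upkeep factors (top) and 10 partners of the members (bottom), by brightest probe. Blue marks genes lower with an adjusted p under 0.05 (3 and 5) and grey those not past it, and Igf2bp1 stands at -3.64.

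Several members are known to be made by stromal or mesenchymal cells, so markers of other cell types were summed on the linear intensity scale. The 8 epithelial markers, 7 of which were above background on every array, summed to 1156592 to 1166288 in Pak1-/- and 1052312 to 1075165 in Pak1+/+. They went both ways, with Cdh1 (1.19), Krt8 (0.57) and Krt18 (0.27) higher and Krt7 lower (-1.10; limma adjusted p = 0.00118, 0.00295, 0.0268 and 0.000564). The 9 fibroblast markers with a probe summed to 2388 to 3607 and 1294 to 1909, with Col3a1, Lum and Pdgfrb dim on all arrays. That difference lay mostly in Postn and Col1a1. Postn was dim on both Pak1+/+ arrays and entered the test through the Pak1-/- arrays alone, so only a bound is given, at least 10.4-fold higher in Pak1-/-. Col1a1 was higher by 1.12 (limma adjusted p = 0.00512), while Col1a2 (0.03) and Pdgfra (-0.16) did not pass. The 8 leukocyte markers summed to 52253 to 74915 and 43461 to 48024, with 1 dim on all arrays. Most of that sum was a single Itgam probe, which read 16.07, 15.51, 15.39 and 15.20 and did not pass (0.49, limma adjusted p = 0.110). The other Itgam probes read 7.63, 7.49, 7.63 and 7.89 (-0.20) and 8.23, 7.64, 7.35 and 7.40 (0.56), and neither passed. The leukocyte sum thus rests on a level that the other probes of the gene did not show. Ptprc, the leukocyte marker that passed, was lower by 0.45 (limma adjusted p = 0.00559). Sums of the 6 endothelial markers overlapped (10133 to 10505 and 9207 to 10983) and were mostly the brightest Kdr probe, which did not pass (0.04, limma adjusted p = 0.783). The other Kdr probe read 8.05, 7.92, 6.61 and 6.63. It was dim on both Pak1+/+ arrays and at least 2.17-fold higher in Pak1-/-. The 7 adipocyte and muscle markers, 4 dim on all arrays, summed to 601 to 633 and 685 to 699. The part of these cell types in the differences of Igf2r, Peg3 and Plagl1 was not tested.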

How the data were processed

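The authors deposited linear spot intensities per array from Agilent Feature Extraction, not normalized between arrays, and a table of log2 values that the authors background corrected (normexp) and quantile normalized. Here the mean intensity was corrected against the local background with normexp (offset 50), converted to log2 and quantile normalized over 43020 spots with limma 3.58.1 in R 4.3.3, and spots of a probe were averaged. Probes well above background (over 50% of spots) on at least 2 of 4 arrays were tested with lmFit and eBayes (two-sided, genotype only), with Benjamini-Hochberg adjustment at 0.05. The offset raises dim values and understates their change. An "at least" fold sets the brighter group against the dim group's own values or the lowest value well above background, whichever is higher, per array. The brightest probe, by its mean over the 4 arrays, stood for a gene. Of 32334 probes with an accession, 26055 were named through GRCm38.p6 and the rest kept their file name; coordinates are those of the files (mm9). The code was tested on simulated data. All members, the tested genes of their domains, listed genes past a 2-fold difference, and Igf1r, Insr, Ctcf and Dnmt1 were named. Genes with a pattern like a member's were to be named for members past 2-fold by their brightest probe, of which there were none. The members and lists were chosen with earlier results of these data known. The number of arrays limits the precision, and alternatives in normalization, background, filter, moderation, threshold and samples were run.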

Additional observations from a re-analysis of the deposited data

How the results depend on the processing

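The number of called probes was 14132, against 13211 with the replicate number as a block, 8878 at an adjusted p under 0.01 and 3413 with a 2-fold requirement, and 10314 to 12172 without single samples. The count of members called was 3, 1 to 2 without single samples, 1 at 0.01 and 0 with the 2-fold requirement. Other imprinted genes numbered 15, 8 to 9 without single samples, 7 at 0.01 and 4 with the 2-fold requirement. The upkeep factors numbered 3, 2 to 3 without single samples and 1 with the 2-fold requirement. The 5 partners became 3 with either 75th percentile scaling, with the filter on all 4 arrays, with no filter, without any single sample and at 0.01, and 1 with the 2-fold requirement. Igf2 passed with an offset of 0 (0.37, limma adjusted p = 0.0282) and was 0.83 (limma adjusted p = 0.0516) with the scaled processed signal. It was dim on both Pak1+/+ arrays and entered the test through the Pak1-/- arrays alone, so these values are not read as a measured difference. Igf2r was 0.31 (adjusted p = 0.0798) with the scaled processed signal and 0.29 to 0.49 without single samples. Without single samples Peg3 ranged from -0.56 to -0.40 and Plagl1 from -0.57 to -0.41. With the scaled processed signal the dim members moved to -0.74 (Zim1), 0.93 (Mest), -0.67 (Dlk1) and -0.65 (Grb10). With an offset of 0 Mest was 0.69, Dlk1 -0.20 and Grb10 0.59, and with no filter Mest was 0.31 (adjusted p = 0.0338). The cause was not tested. Ndn turned to 0.013 and Kcnq1ot1 to 0.0048 with cyclic loess. Without single samples the lowest and highest values were -0.27 and 0.19 for Ndn, -0.38 and 0.25 for Kcnq1ot1, -0.49 and 0.062 for Airn, -0.12 and 0.81 for Magel2, and -0.11 and 0.051 for Peg12. The labels do not say that a replicate number pairs samples, and deviations of equally numbered samples correlated at -0.03. With the block, Insr, Ins2, Slc22a18, Mirg and Siah1a fell short (limma adjusted p = 0.0689, 0.0898, 0.0520, 0.0560 and 0.0691). Ube3a and the partner Plagl2 passed (limma adjusted p = 0.0484 and 0.0364), as did Meg3 (0.00391), which was dim on both Pak1+/+ arrays. Partners called numbered 4 with the block and members called stayed at 3. The values of Zim1, Mest, Dlk1 and Grb10 lie below the background flag and show only how far they move with the setting.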
